A study of Mus musculus with 32 samples.

Results

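Primary tumors of 6DT1 cells were compared with the lungs of wildtype hosts, across all genes, to describe which genes and programs marked each tissue 14 days after implantation. The comparison used 12 of the 32 libraries of the series, chosen by their labels as 6 tumors and 6 lungs of the wildtype (WT) groups at day 14. All hosts were young adult virgin female FVB/N mice, WT littermates of Clic4 knockout (KO) animals, and all carried a 6DT1 tumor. 6DT1 is a mouse breast cancer line grown from a tumor of the MMTV-Myc model, in which the mammary tumor virus promoter drives Myc in mammary epithelium, and it was grafted into the fourth mammary fat pad. The lungs were labelled pre-metastatic, and the sources used here do not say which tumor and which lung came from 1 animal. The other 20 libraries were 12 tumors and lungs of KO hosts, 4 lungs of WT mice without tumor and 4 lungs of KO mice without tumor. The grafted cells are 1 cell line, so the 6 tumors were separate grafts of the same cancer cells.

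Lung is built from thin alveolar type 1 cells that exchange gas, alveolar type 2 cells that make surfactant, club and ciliated cells of the airways, and a dense bed of capillary endothelium held by fibroblasts. A grafted mammary tumor holds cancer cells together with the fibroblasts, vessels, macrophages, fat and mammary ducts of the host's fat pad, which also contains a lymph node. In bulk RNA from such tissues, fewer cells of a type and less RNA per cell cannot be told apart, which holds for each cell type list named here.

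Counts assigned to genes ran from 4446323 to 6354058 per tumor and from 5077107 to 6450362 per lung. The lungs held the defining markers of their tissue, and Sftpc, the gene of surfactant protein C, had 5026 to 5619 CPM (median 5368), against 0 to 0.539 CPM in the tumors, where CPM is the count scaled to library size and composition. The tumors held the luminal keratin gene Krt8 at 337 to 493 CPM (median 379), while the epithelial adhesion genes Cdh1 and Epcam were lower in tumor than in lung. Libraries stood apart in both tissues. Tumor replicate 6 had the highest levels of basal keratin genes (Krt5 at 131 CPM against 2.404 to 47.1 in the other tumors) and nearly all counts of the casein genes Csn2 and Csn1s1. Tumor replicate 2 had 56.5 CPM of Glycam1, a gene of milk and of lymph node vessels, against at most 0.241 CPM in the other tumors, and had the largest sum of B cell genes. Lung replicate 5 had a sum of interferon-stimulated genes of 3681 CPM, against 669 to 1133 in the other lungs. Where leaving out tumors 2 and 6 and lung 5 moved a result by over 1.5 times, the value without these 3 libraries is given beside it. The rule covered the count or median of a list and the fitted difference of a gene given here. Medians and differences were compared as folds, so that 1.5 times is not a ratio of log2 values.

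**Figure D1:**
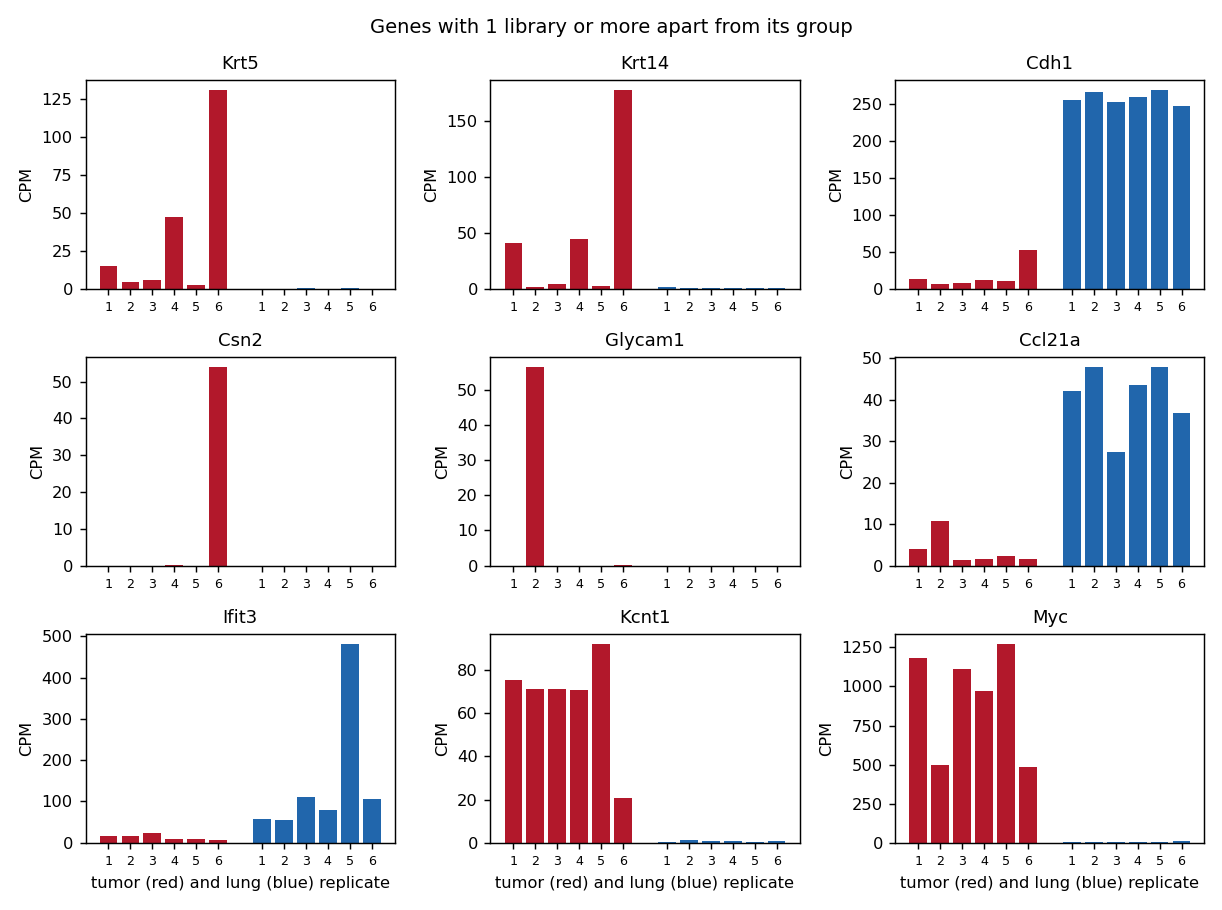
CPM (bars, linear axis from 0) of 9 genes in each of the 6 tumors (red) and 6 lungs (blue). Krt5, Krt14, Cdh1 and Csn2 were highest among tumors in replicate 6, Glycam1 and Ccl21a in replicate 2, Ifit3 was highest among lungs in replicate 5, Kcnt1 was lowest among tumors in replicate 6, and Myc had 499 and 486 CPM in tumors 2 and 6 and at least 969 CPM in the others.

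Of 15267 genes with enough counts to test, 2344 (15.4%) were higher in tumor and 3274 (21.4%) were higher in lung (36.8% in either direction), by more than 2-fold at an FDR of 0.05 in edgeR's quasi-likelihood test. Higher in tumor or in lung means such a call in what follows. The log2 fold change (log2FC) is tumor minus lung, so that positive values mean higher in tumor. It is given ± an approximate SE, worked back from the edgeR test statistic of 6 against 6 libraries. For genes with few counts in a tissue this SE is too small, since it leaves out much of the counting error. For Bmp5 it was 0.219, while the counting interval of the lung to tumor ratio ran from 356 to 78435. The median log2 fold change over all tested genes was -0.01. The 6 tumors lay wholly above the 6 lungs for 27.2% of tested genes and wholly below them for 29.2%. Without tumors 2 and 6 and lung 5, 2509 genes were higher in tumor and 3578 were higher in lung.

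**Figure D2:**
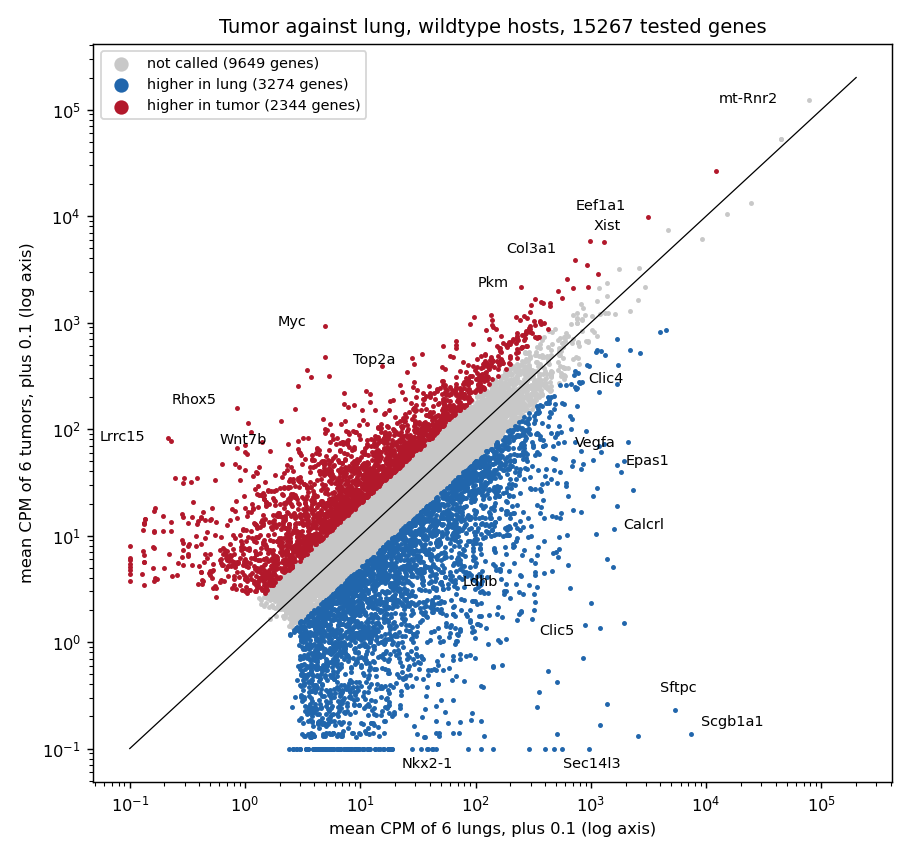
Mean CPM of each tested gene in the 6 lungs (x axis) and the 6 tumors (y axis), both plus 0.1 on log axes, with genes called higher in tumor in red, higher in lung in blue and others in grey. Genes listed at 0 in all tumors lie on the lower edge, where Sec14l3 and Nkx2-1 are labelled, while Myc and Rhox5 lie above the diagonal.

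The same comparison in KO hosts, on 6 tumors and 6 lungs that share no library with the WT fit, called 2227 genes higher in tumor (14.7% of 15113 tested) and 3104 higher in lung (20.5%). Of the WT calls, 1925 genes were also higher in tumor in KO hosts (82.1% of the WT list and 86.4% of the KO list), and 2821 were also higher in lung (86.2% and 90.9%). A single olfactory receptor gene, Olfr56, named after its values were seen, was called in opposite directions in the WT and KO fits. Its WT call was lost without lung 5, which had 14.02 CPM against 2.37 to 4.93 CPM in the other lungs, and also without tumor 5. The log2FC was -1.35 on all 12 libraries and -0.59 without tumors 2 and 6 and lung 5 (edgeR adjusted p = 0.207).

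The gene lists covered the cell types and programs that tumor and lung could hold. The count of each list stands beside the 15.4% of all tested genes higher in tumor and the 21.4% higher in lung, and a share near these is no result about a list. Lists of proliferation, ribosome biogenesis, glycolysis, matrix and tumor-associated macrophages had positive medians, and lists of alveolar, airway, endothelial, lung fibroblast, cardiac and red blood cell genes had negative ones. The medians in KO hosts lay close to those in WT hosts for most lists. The largest gaps were those of MHC class I (0.05 in WT and 1.10 in KO hosts), B cells (-2.07 and -3.27, but -4.16 in WT hosts without tumors 2 and 6 and lung 5, which turns the gap) and adipocytes (1.15 and 2.28), and the difference between hosts was not tested here.

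**Figure D3:**
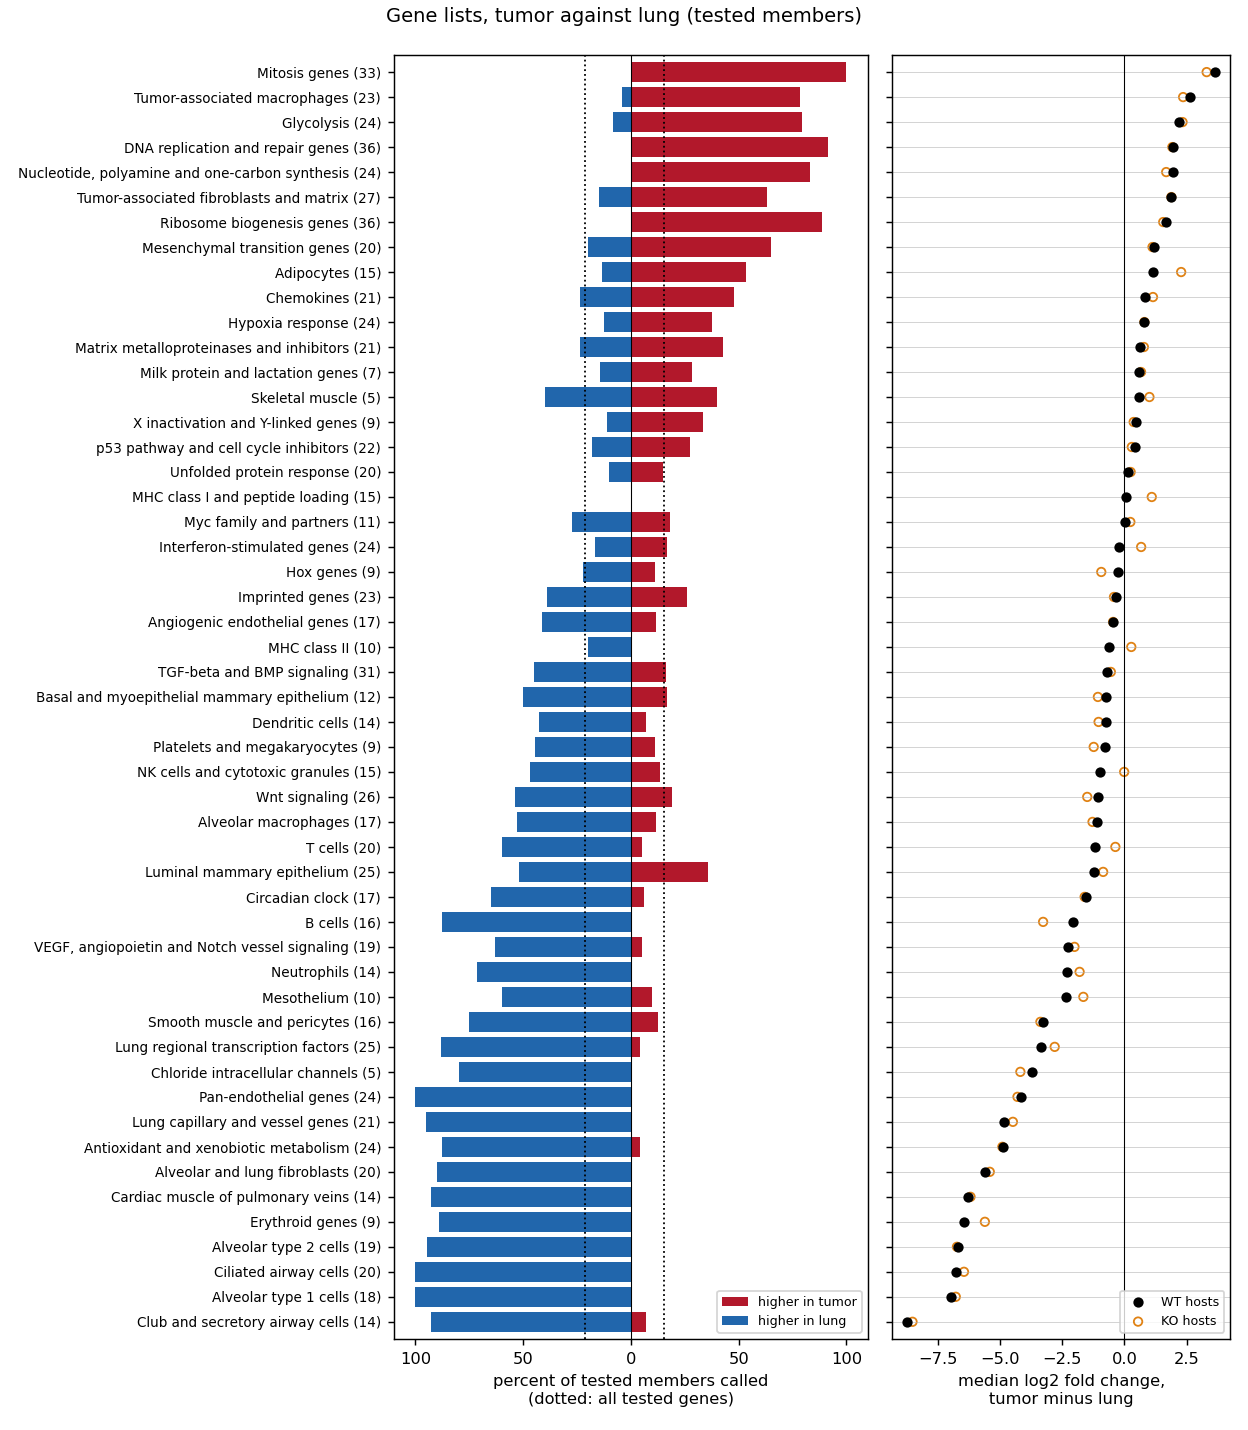
Left, percent of the tested members of each gene list called higher in tumor (red, to the right) or higher in lung (blue, to the left), with the number tested in parentheses and dotted lines at the shares over all tested genes (15.4% and 21.4%). Right, the median log2 fold change of each list in WT hosts (filled) and KO hosts (open), from 3.64 for mitosis genes to -8.74 for club cell genes in WT hosts.

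Myc, the oncogene that drives the mouse model from which 6DT1 was grown, was among the 10 called genes of largest excess in tumor, ranked among those with a mean of at least 50 CPM there. Its level was 1184, 499, 1112, 969, 1273 and 486 CPM in tumors 1 to 6 and 2.15 to 8.38 CPM in the lungs (log2FC 7.55 ± 0.35, edgeR adjusted p = 1.8e-11). Tumors 2 and 6 had less than the other 4 tumors. The count per gene does not separate a Myc transgene from the endogenous gene at chr15:61985391-61990374, plus strand (GRCm38). Among the 11 tested members of the Myc network, 2 were higher in tumor and 3 in lung, beside 15.4% and 21.4% of all tested genes. Mxd3, a Myc antagonist of dividing cells, was the other member higher in tumor (3.62 to 5.39 against 0.34 to 2.796 CPM), while Mxd4, an antagonist of resting cells, was higher in lung, with 243 to 319 CPM against 77.8 to 104 CPM in tumors (log2FC -1.60 ± 0.08, edgeR adjusted p = 8.1e-11). Max, the partner that Myc needs to bind DNA, had 49.00 to 66.5 CPM (median 53.3) in tumors and 37.1 to 52.5 CPM (median 47.9) in lungs, which overlapped.

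Among the others of these 10 genes was Rhox5, an X-linked homeobox gene of testis and placenta often expressed in mouse tumors, with 137 to 180.1 CPM (median 165) in tumors and 0 to 1.71 CPM in lungs (log2FC 7.66 ± 0.25, edgeR adjusted p = 3.9e-13). Lrrc15, a membrane protein of activated fibroblasts, had 47.8 to 111 CPM (median 80.96) against 0 to 0.215 CPM (log2FC 8.97 ± 0.38). Thbs2, a matrix protein that limits vessel growth, had 268 to 733 CPM (median 496) against 3.07 to 6.72 CPM (log2FC 6.59 ± 0.29). Ccl8, a chemokine of macrophages, had 61.4 to 208 CPM (median 114) against 0 to 1.94 CPM (log2FC 6.85 ± 0.43), and Padi4, an enzyme that converts arginine to citrulline in proteins, had 73.1 to 111 CPM (median 96.6) against 0.41 to 1.904 CPM (log2FC 6.50 ± 0.20). A lack of overlap between tumors and lungs was part of the rule that chose these 5 genes. Kcnt1, a sodium-activated potassium channel, had 20.5 CPM in tumor 6 and at least 70.8 CPM in the other tumors, against 0.384 to 1.29 CPM in lungs. Mup10 (20.9 to 120.4 CPM (median 88.7) in tumors) belongs to a cluster of near-identical urinary protein genes, and Eno1b and Gm4735 are near-copies of the enolase gene Eno1, so the split of reads among the copies is uncertain for these 3 genes.

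Most genes of cell division were higher in tumor. All 33 of 33 mitosis genes were higher in tumor, beside 15.4% of all tested genes, with a median log2 fold change of 3.64. Their summed level was 2224 to 3149.6 CPM in tumors and 180.5 to 376 CPM in lungs. Mki67, the gene of the Ki-67 proliferation antigen, had 379 to 565 CPM (median 479) in tumors and 42.2 to 98.3 CPM (median 60.7) in lungs (log2FC 2.91 ± 0.16, edgeR adjusted p = 1.8e-10). Top2a, which untangles DNA strands, had 344 to 479 CPM (median 411) against 16.8 to 49.9 CPM (median 25.2) (log2FC 3.81 ± 0.20). Cenpf, a kinetochore protein, showed the largest difference of the list (log2FC 4.39 ± 0.19) and Cenpa, the histone of centromeres, the smallest (log2FC 2.33 ± 0.13). Every tumor lay above every lung for these 4 genes, as for 27.2% of all tested genes.

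Of 36 genes of DNA replication and repair, 33 were higher in tumor with a median log2FC of 1.97. Mcm6, a subunit of the replicative helicase, had 115 to 157 CPM (median 143) in tumors and 11.7 to 21.3 CPM (median 15.01) in lungs (log2FC 3.12 ± 0.12, edgeR adjusted p = 2.9e-12). Rrm1, the large subunit of ribonucleotide reductase, had a log2FC of 1.64 ± 0.07, Pcna, the sliding clamp of DNA polymerase, log2FC 1.26 ± 0.09, and Exo1, an exonuclease of mismatch repair, log2FC 3.65 ± 0.19, the largest of the list. Tyms, thymidylate synthase, was not called, with 113 to 131 CPM in tumors and 136 to 147 CPM in lungs (log2FC -0.24 ± 0.05).

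Short motifs were counted, with no test, in the promoters of mitosis, replication, ribosome biogenesis and, for contrast, alveolar type 2 genes. Promoters were taken from RefSeq on GRCm38.p6, as 250 bases before to 50 bases after the gene's start, and were found for 28 of 33 mitosis genes. CCAAT, the box bound by nuclear factor Y, stood on either strand in 23 of 28 mitosis genes (82.1%), against 41.1% of all genes of the table and 37.4% of its single promoters, and in 16 of 28 replication genes (57.1%) and 8 of 30 ribosome biogenesis genes (26.7%). TTTGAA, the core of the cell cycle genes homology region, stood in 22 of 28 (78.6%), against 20.2% of all genes and 17.9% of promoters, and in 4 of 28 replication genes (14.3%) and 2 of 30 ribosome biogenesis genes (6.67%). GGCGGGAA, an E2F site, stood in 6 of 28 replication genes (21.4%), 2 of 30 ribosome biogenesis genes (6.67%) and 0 of 28 mitosis genes, against 2.52% of all genes and 2.19% of promoters. CACGTG, the E-box bound by Myc and Max among other factors, stood in 5 of 30 ribosome biogenesis genes (16.7%), 3 of 28 mitosis genes (10.7%) and 3 of 28 replication genes (10.7%), against 8.09% of all genes and 7.15% of promoters. In the 16 alveolar type 2 genes with a promoter, CCAAT stood in 31.2%, TTTGAA in 12.5%, and GGCGGGAA and CACGTG in 6.25% each. All were searched as spelled and on the opposite strand, none contains another, and a match is a description of the sequence, with no binding measured.

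To show how the motifs lie, the 130 bases before the start are printed for the 4 mitosis genes of largest log2 fold change that hold both CCAAT and TTTGAA there. They lie at Cdk1 chr10:69352913-69353042 (minus strand), Top2a chr11:99024190-99024319 (minus strand), Ube2c chr2:164769799-164769928 (plus strand) and Cdc20 chr4:118437344-118437473 (minus strand), and encode the mitotic kinase, the topoisomerase, a ubiquitin-conjugating enzyme and an activator of the anaphase-promoting complex. Each runs 5′ to 3′ toward the start, and capitals mark CCAAT or its complement ATTGG and TTTGAA or its complement TTCAAA.
Cdk1: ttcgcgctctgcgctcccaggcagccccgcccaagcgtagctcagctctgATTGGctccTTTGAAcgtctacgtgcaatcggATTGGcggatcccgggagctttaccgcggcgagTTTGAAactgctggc
Top2a: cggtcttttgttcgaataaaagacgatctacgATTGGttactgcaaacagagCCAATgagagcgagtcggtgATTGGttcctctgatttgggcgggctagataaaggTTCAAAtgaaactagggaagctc
Ube2c: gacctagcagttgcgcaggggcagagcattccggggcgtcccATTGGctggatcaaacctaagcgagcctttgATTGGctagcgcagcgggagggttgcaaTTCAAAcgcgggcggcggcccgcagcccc
Cdc20: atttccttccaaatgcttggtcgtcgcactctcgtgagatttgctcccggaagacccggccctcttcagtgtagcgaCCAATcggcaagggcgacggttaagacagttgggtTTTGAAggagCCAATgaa

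Of the replication genes, Uhrf1 and Rrm1 held both CCAAT and GGCGGGAA in the same window, at Uhrf1 chr17:56303207-56303336 (plus strand) and Rrm1 chr7:102441565-102441694 (plus strand). Capitals mark CCAAT and GGCGGGAA or its complement TTCCCGCC.
Uhrf1: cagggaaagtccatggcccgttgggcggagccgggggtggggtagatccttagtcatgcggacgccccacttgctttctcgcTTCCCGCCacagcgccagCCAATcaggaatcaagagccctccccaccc
Rrm1: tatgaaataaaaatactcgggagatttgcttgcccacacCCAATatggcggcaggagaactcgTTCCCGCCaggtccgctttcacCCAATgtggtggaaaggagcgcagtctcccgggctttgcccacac

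In these 6 genes the TTTGAA or GGCGGGAA nearest the start began 15 (Cdk1), 23 (Top2a), 29 (Ube2c), 18 (Cdc20), 48 (Uhrf1) and 67 (Rrm1) bases before the start. Their own log2 fold changes were 3.90, 3.81, 3.77, 3.55, 3.61 and 1.64.

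Biosynthesis genes were higher in tumor as well. Of 36 ribosome biogenesis genes, 32 were higher in tumor (median log2FC 1.67), and their sum was 3737 to 4679 CPM in tumors and 1078 to 1174 CPM in lungs. Npm1, nucleophosmin of the nucleolus, had 1001 to 1165 CPM (median 1043) against 125 to 146 CPM (median 142) (log2FC 2.92 ± 0.06, edgeR adjusted p = 3.2e-15), and Ncl, nucleolin, had a log2FC of 1.69 ± 0.08. Of 24 genes of nucleotide, polyamine and one-carbon synthesis, 20 were higher in tumor (median log2FC 1.96). Psat1, an enzyme of serine synthesis, had 105 to 119 CPM (median 113) against 4.09 to 6.66 CPM (median 5.22) (log2FC 4.39 ± 0.09), Impdh2, the rate-limiting enzyme of guanine nucleotide synthesis, had a log2FC of 2.11 ± 0.06, and Odc1, the first enzyme of polyamine synthesis, had a log2FC of 1.95 ± 0.10.

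Of 24 glycolysis genes, 19 were higher in tumor and 2 in lung (median log2FC 2.21), and their sum ran from 8131 to 10456 CPM in tumors and from 1673 to 1969 CPM in lungs. Pkm, pyruvate kinase, had 1868 to 2527 CPM (median 2095) against 235 to 271 CPM (median 244) (log2FC 3.10 ± 0.08, edgeR adjusted p = 3.3e-14), Gapdh had a log2FC of 2.79 ± 0.08 and Aldoa, aldolase, log2FC 1.54 ± 0.08. The 2 lactate dehydrogenase subunits differed in opposite directions, with Ldha at 811 to 979.8 CPM (median 905) in tumors and 134 to 149 CPM (median 144) in lungs (log2FC 2.66 ± 0.06), and Ldhb at 1.61 to 6.27 CPM (median 3.55) in tumors and 55.5 to 69.9 CPM (median 61.2) in lungs (log2FC -4.11 ± 0.20, edgeR adjusted p = 2.7e-11). Pfkfb3, which makes an activator of phosphofructokinase, was the other member higher in lung (log2FC -1.09 ± 0.16), a call lost without lung 3. Of 24 genes of the hypoxia response, 9 were higher in tumor and 3 in lung, beside 15.4% and 21.4% of all tested genes. Egln3, an oxygen-sensing prolyl hydroxylase that hypoxia induces, had 41.3 to 80.3 CPM (median 61.5) against 0.86 to 2.304 CPM (median 1.58) (log2FC 5.30 ± 0.21), and Ero1l, an oxidase of the endoplasmic reticulum, log2FC 1.88 ± 0.21. Higher in lung were Epas1, the hypoxia-inducible factor of endothelium (1525 to 1855 CPM (median 1681) against 40.1 to 55.2 CPM (median 43.2), log2FC -5.20 ± 0.09, edgeR adjusted p = 5.1e-16), Vegfa, and Hilpda, a lipid droplet protein (log2FC -1.21 ± 0.23).

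**Figure D4:**
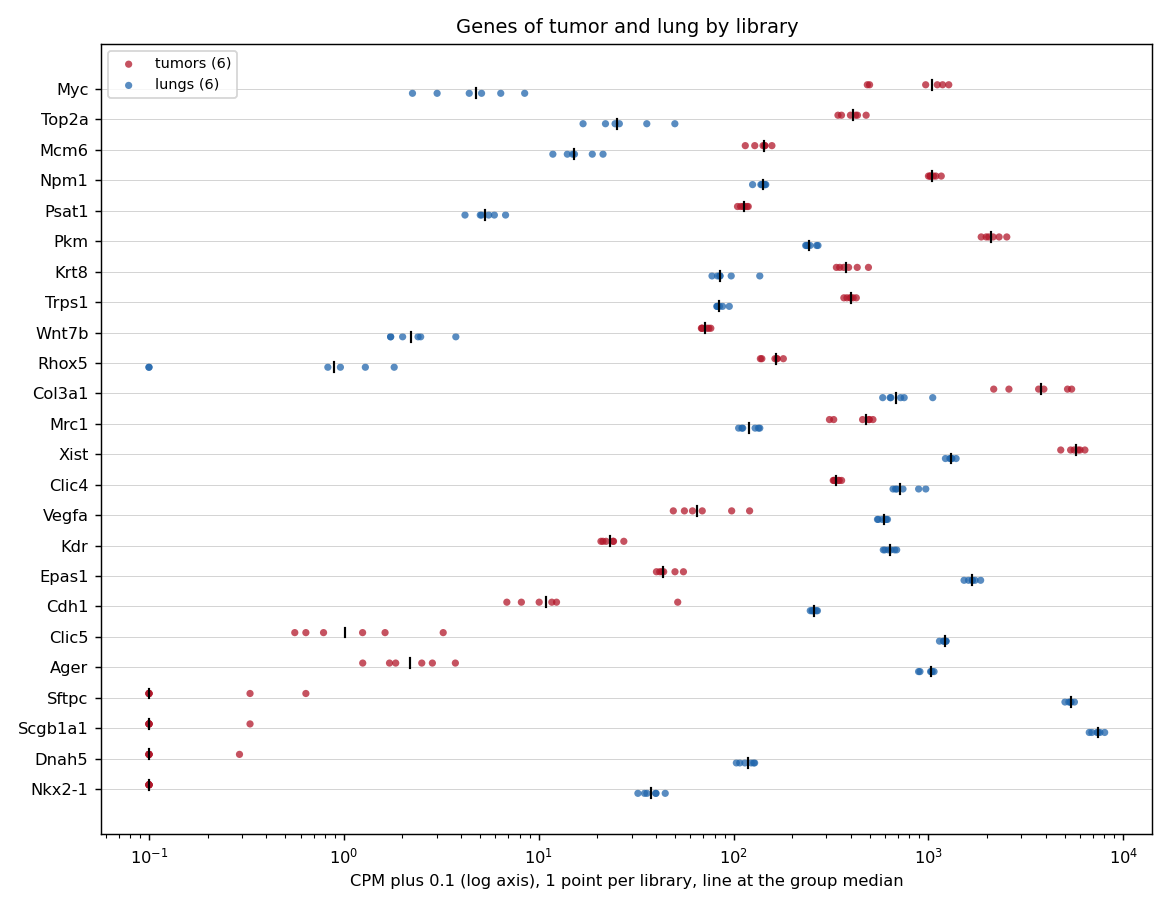
CPM plus 0.1 (log axis) of 24 genes in each of the 6 tumors (red points) and 6 lungs (blue points), with a black line at each group median. The ranges of tumor and lung do not overlap for any of the 24 genes, which the rule that chose some of them required. Of all tested genes, 27.2% lie wholly higher in tumor and 29.2% wholly higher in lung. Myc, Rhox5 and Psat1 are higher in tumor, and Sftpc, Scgb1a1, Dnah5 and Nkx2-1 are near or at 0 in tumors.

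Luminal mammary genes differed from lung in both directions. Of 25 tested luminal mammary genes, 9 were higher in tumor and 13 in lung (median log2FC -1.23), and lung epithelium expresses many of the latter. The counts were 9 and 13 and the median -2.04 without tumors 2 and 6 and lung 5. Krt8 and Krt18, the keratin pair of simple epithelia, were higher in tumor, with 337 to 493 against 77.5 to 136 CPM and 183 to 241 against 47.5 to 78.5 CPM (log2FC 1.83 ± 0.11, edgeR adjusted p = 6.7e-10). The list's transcription factors differed in both directions. Higher in tumor were Trps1 (368 to 427 CPM (median 399) against 81.95 to 95.04 CPM (median 83.7), log2FC 2.21 ± 0.06, edgeR adjusted p = 3.1e-14), Tfap2a (log2FC 6.45 ± 0.41), Gata3 (log2FC 1.40 ± 0.22), Msx1 (log2FC 1.34 ± 0.25) and the estrogen receptor gene Esr1 (16.2 to 23.7 CPM (median 21.7) against 3.24 to 7.098 CPM (median 5.38), log2FC 1.99 ± 0.18), as was Prlr, the prolactin receptor (log2FC 2.94 ± 0.27). Higher in lung were Foxa1 (log2FC -3.83 ± 0.25), Elf3 (log2FC -2.30 ± 0.26), Ehf (log2FC -1.69 ± 0.52) and Elf5 (log2FC -1.23 ± 0.47). Ehf and Elf5 were highest among tumors in tumor 6, and their log2FC was -3.17 and -2.29 without tumors 2 and 6 and lung 5. Cdh1, the gene of E-cadherin, was lower in every tumor than in every lung, at 12.2, 6.77, 8.05, 11.6, 9.96 and 51.6 CPM in tumors 1 to 6 against 248 to 269.6 CPM (log2FC -3.98 ± 0.36, edgeR adjusted p = 6.5e-08). Krt7 was higher in lung too (log2FC -6.28 ± 0.28). The log2FC without those 3 libraries was -4.60 for Cdh1 and -7.00 for Krt7.

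Basal mammary genes varied among the tumors. Their sum was 966 CPM in tumor 6 and 251 to 458 CPM in the others. Krt5 was 15.1, 4.37, 5.52, 47.1, 2.404 and 131 CPM in tumors 1 to 6 and 0 to 0.51 CPM in lungs (log2FC 7.51 ± 1.41, edgeR adjusted p = 1.7e-04). Krt14, which the filter on low counts left out of the test, was 40.4, 1.75, 3.91, 44.2, 2.404 and 178 CPM, so tumors 1, 4 and 6 were high in both keratins. Of the 12 tested members, 2 were higher in tumor, near the 15.4% of all tested genes, and 6 in lung, beside 21.4%. Without tumors 2 and 6 and lung 5 the counts were 1 and 6. The count in tumor was also 1 when lung 3, lung 5, tumor 1 or tumor 6 alone was left out. The milk protein genes Csn2 and Csn1s1 had 54.04 and 36.7 CPM in tumor 6 and at most 0.269 and 0.218 CPM in the others, while Csn3, kappa-casein, was present in all 6 tumors (8.29 to 16.4 CPM (median 13.4)) and in lungs at 0 to 0.19 CPM. Of 19 milk and lactation genes, 7 had counts for a test, 2 were higher in tumor and 1, Elf5, in lung, a call lost when any of 6 single libraries was left out. Whether mammary tissue of the host in tumor 6 had a part in these levels was not tested.

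Of 20 genes of the mesenchymal transition, 13 were higher in tumor and 4 in lung (median log2FC 1.17), beside 15.4% and 21.4% of all tested genes. The count in lung is near that share. Vim, vimentin, had 1795 to 2229.7 CPM (median 1979) against 433 to 585 CPM (median 519) (log2FC 1.95 ± 0.07, edgeR adjusted p = 2.1e-12), and Fn1, fibronectin, 1982 to 4151 CPM (median 2347) against 539.5 to 729 CPM (median 607) (log2FC 2.04 ± 0.16), with tumor 6 the highest. The pooled ratio of tumor to lung for Twist1, a transcription factor of the transition, was 221 (95% counting interval 39.2 to 8769), since the 6 lungs held 1 count in all. Higher in lung were Tgfb2 (log2FC -2.26 ± 0.17), Cdh11, a cadherin of fibroblasts (log2FC -1.85 ± 0.19), Snai2 (log2FC -1.73 ± 0.21) and Cdh2, N-cadherin (log2FC -1.06 ± 0.24), whose call was lost without lung 2, lung 5, tumor 2 or tumor 3.

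Fibroblast genes divided into a tumor set and a lung set. Of 27 genes of tumor-associated fibroblasts and matrix, 17 were higher in tumor and 4 in lung (median log2FC 1.89). Col3a1, type III collagen, had 2165 to 5439 CPM (median 3799) against 583 to 1053 CPM (median 681) (log2FC 2.39 ± 0.22, edgeR adjusted p = 6.4e-08), and Col1a2, type I collagen, 1147 to 2312 CPM (median 1668) against 259 to 425 CPM (median 328) (log2FC 2.35 ± 0.15). Sparc, a matrix glycoprotein, overlapped (log2FC -0.27 ± 0.10). The 4 members higher in lung were the growth factor receptors Pdgfra (log2FC -2.56 ± 0.16) and Pdgfrb (log2FC -1.19 ± 0.13) and the contractile genes Tagln (log2FC -1.72 ± 0.15) and Acta2 (log2FC -1.18 ± 0.13). Of 20 lung fibroblast genes, 18 were higher in lung (median log2FC -5.63). Itga8, the integrin of alveolar fibroblasts, had 629 to 738 CPM (median 642) in lungs against 1.38 to 4.82 CPM (median 3.14) in tumors (log2FC -7.71 ± 0.14, edgeR adjusted p = 9.7e-16), and Inmt, a methyltransferase of lung, had 1045 to 1297 CPM (median 1208) in lungs and a pooled lung to tumor ratio of 16679.8 (95% counting interval 4617 to 137736). Of 16 smooth muscle and pericyte genes, 12 were higher in lung and 2 in tumor, beside 21.4% and 15.4% of all tested genes. Myh11, smooth muscle myosin, was higher in lung at a log2FC of -3.58 ± 0.27. The 2 members higher in tumor were the pericyte gene Rgs5 (34.5 to 63.7 CPM (median 55.2) against 11.6 to 18.4 CPM (median 13.9), log2FC 1.81 ± 0.17) and Smtn (log2FC 1.19 ± 0.12).

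Among 21 matrix metalloproteinases and inhibitors, 9 were higher in tumor and 5 in lung, beside 15.4% and 21.4% of all tested genes. Mmp10, stromelysin 2, had 11.1 to 26.2 CPM (median 14.99) in tumors and a pooled tumor to lung ratio of 262 (95% counting interval 72.1 to 2170.0). Timp3, a tissue inhibitor of metalloproteinases bound to matrix, was higher in lung, with 1009 to 1445 CPM (median 1144) against 42.8 to 121 CPM (median 59.9) (log2FC -4.09 ± 0.22, edgeR adjusted p = 1.3e-10).

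The lung lists were higher in lung almost throughout, beside 21.4% of all tested genes higher in lung. All 18 of 18 alveolar type 1 genes were higher in lung (median log2FC -6.97), as were 18 of 19 alveolar type 2 genes (median log2FC -6.68), with Fasn, fatty acid synthase, the exception (439 to 648 CPM in tumors and 489 to 605 CPM in lungs). Several of these genes had 0 to 3 counts in all tumors together, for which a ratio of pooled counts replaces the fitted fold. Scgb1a1, secretoglobin of club cells, at chr19:9083636-9087958, minus strand, had 6697 to 8035 CPM (median 7386) in lungs and 0 to 0.23 CPM in tumors, a pooled ratio of 203938 (95% counting interval 36602 to 8055150). Sftpc, with 5026 to 5619 CPM (median 5368), had a ratio of 49493 (95% counting interval 16935 to 239997), and Sftpa1, surfactant protein A, with 2427 to 2709.6 CPM (median 2498), had 70655 (95% counting interval 12681 to 2790750). Sftpd, surfactant protein D, and Lamp3, a protein of lamellar bodies, had 0 counts in all tumors and were at least 4487-fold and 3741-fold higher in lung, against a floor of 3 counts over the group.

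Ager, the receptor that marks alveolar type 1 cells, had 891 to 1069 CPM (median 1032) in lungs and 1.15 to 3.64 CPM (median 2.08) in tumors (log2FC -8.75 ± 0.15, edgeR adjusted p = 4.1e-16). Cldn18, the tight junction claudin of alveoli, had 484 to 531 CPM (median 508) in lungs and a pooled ratio of 14081 (95% counting interval 2527 to 556199). Cav1, caveolin of type 1 and endothelial cells, was also well expressed in tumors (366 to 426 CPM (median 384) against 834 to 1067 CPM (median 969), log2FC -1.30 ± 0.07). Slc34a2, the phosphate transporter of type 2 cells, was 6.75 CPM in tumor 6, at most 0.808 CPM in the other tumors, and 1809 to 2082 CPM (median 1960.0) in lungs (log2FC -10.56 ± 0.41, and -12.47 without tumors 2 and 6 and lung 5).

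In the airway lists, 13 of 14 club and secretory genes and all 20 of 20 ciliated cell genes were higher in lung. The medians were -8.74 and -6.76, or -8.18 and -6.15 with the genes at 0 in tumors placed at their bounds. Cyp2f2, a cytochrome of club cells, had 794 to 987 CPM (median 904) against 0.515 to 2.65 CPM (median 1.22) (log2FC -9.40 ± 0.17, edgeR adjusted p = 6.8e-16), and Scgb3a2 had 0 counts in tumors and was at least 2716-fold higher in lung. Sec14l3, a lipid-binding protein of airway cells, also had 0 counts in tumors and was at least 8852-fold higher. Dnah5, a motor of cilia, had 103 to 128 CPM (median 119) in lungs and a pooled ratio of 3256 (95% counting interval 584 to 128658). Ldhd, a mitochondrial lactate dehydrogenase placed in the club cell list, was the member higher in tumor (14.5 to 20.7 CPM (median 16.8) against 5.95 to 10.03 CPM (median 6.92), log2FC 1.17 ± 0.15).

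Of 25 transcription factors of lung regions, 22 were higher in lung and 1 in tumor (median log2FC -3.36, and -4.04 without tumors 2 and 6 and lung 5). Nkx2-1, the master factor of lung epithelium, at chr12:56531958-56536908, minus strand, had 32.2 to 44.5 CPM (median 37.8) in lungs and 0 counts in all 6 tumors, at least 350.2-fold higher in lung. Foxf1, a factor of lung mesenchyme and endothelium, had 115 to 235 CPM (median 166) against 0.69 to 2.18 CPM (median 1.82) (log2FC -6.72 ± 0.26, edgeR adjusted p = 2.1e-12), and Tbx2 102 to 141 CPM (median 133) against 0.23 to 1.89 CPM (median 0.798) (log2FC -7.08 ± 0.19). Sox9, a factor of lung buds and of many tumors, was the member higher in tumor, with 12.02 to 19.5 CPM (median 14.2) against 0 to 0.615 CPM (median 0.36) (log2FC 5.42 ± 0.34, edgeR adjusted p = 7.3e-10). Of 24 genes of antioxidant and xenobiotic metabolism, 21 were higher in lung and 1 in tumor. Fmo2, the flavin monooxygenase of lung, had 1221 to 2144 CPM (median 1443) against 2.53 to 8.93 CPM (median 4.301) (log2FC -8.30 ± 0.22), Aldh1a1, a retinal dehydrogenase, had a log2FC of -10.41 ± 0.19, and Gsto1, a glutathione transferase, was the member higher in tumor (71.2 to 81.2 CPM (median 77.01) against 20.6 to 28.9 CPM (median 27.7), log2FC 1.51 ± 0.08).

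Endothelial genes were higher in lung in all 24 of 24 tested members of the pan-endothelial list (median log2FC -4.15), whose sum was 9817 to 10719 CPM in lungs and 421 to 570.3 CPM in tumors. Pecam1, the platelet endothelial adhesion molecule, had 795 to 878 CPM (median 826) against 56.1 to 69.7 CPM (median 60.2) (log2FC -3.74 ± 0.07, edgeR adjusted p = 7.9e-16), and Cdh5, VE-cadherin, 768 to 855 CPM (median 836) against 35.8 to 47.4 CPM (median 41.6) (log2FC -4.31 ± 0.07). Calcrl, a receptor of adrenomedullin, showed a larger difference (1407 to 1802 CPM (median 1621) against 7.27 to 15.7 CPM (median 11.8), log2FC -7.11 ± 0.15), and Nos3, endothelial nitric oxide synthase, the smallest, with overlapping groups (log2FC -1.32 ± 0.27). Of 21 lung capillary genes, 20 were higher in lung (median log2FC -4.86), with Hpgd, which degrades prostaglandins, at a log2FC of -7.62 ± 0.23, and Apln, the apelin ligand of sprouting vessels, not called (26.8 to 38.8 and 28.9 to 46.1 CPM).

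The list of angiogenic endothelial genes differed less between the tissues, with 2 of 17 members higher in tumor, 7 in lung and a median of -0.46. The shares over all tested genes were 15.4% in tumor and 21.4% in lung. Dll4, a Notch ligand of tip cells, was higher in lung (64.5 to 94.4 CPM (median 83.4) against 5.15 to 7.81 CPM (median 6.301), log2FC -3.69 ± 0.13, edgeR adjusted p = 8.0e-13), as were the basement membrane collagens Col4a1 (log2FC -1.41 ± 0.09) and Col4a2 (log2FC -1.64 ± 0.10). Trp53i11 (87.3 to 116 CPM (median 109.5) against 10.9 to 15.9 CPM (median 14.8), log2FC 2.90 ± 0.10) and the netrin receptor Unc5b (log2FC 1.49 ± 0.11) were higher in tumor. Of 19 genes of vessel signaling, 12 were higher in lung and 1 in tumor. The growth factor Vegfa itself was lower in tumors, with 49.00, 55.9, 69.02, 97.8, 61.5 and 121 CPM in tumors 1 to 6 against 548 to 617 CPM in lungs (log2FC -2.96 ± 0.18, edgeR adjusted p = 5.3e-10). Its main receptor Kdr had 587 to 688 CPM (median 633) in lungs against 20.8 to 27.3 CPM (median 23.05) in tumors (log2FC -4.77 ± 0.08), and the angiopoietin receptor Tek had a log2FC of -5.79 ± 0.13. Angptl4, an inhibitor of lipoprotein lipase, was the member higher in tumor (log2FC 1.12 ± 0.28), with overlapping groups and a call lost without lung 2. The count in tumor was 2 without lung 6, tumor 1 or tumor 5.

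Lists of blood and of neighbouring tissues followed. Of 9 erythroid genes, 8 were higher in lung (median log2FC -6.44), and the beta globin gene Hbb-bs had 1845 to 2976 CPM (median 2191) against 13.8 to 37.6 CPM (median 26.6) (log2FC -6.43 ± 0.22, edgeR adjusted p = 7.8e-13). The globin genes are near-copies, so their split of reads is uncertain. Cardiac muscle genes, which the pulmonary veins of mice express, were higher in lung in 13 of 14 cases, and their sum varied from 890.4 to 1387 CPM among the lungs, against 45.8 to 68.9 CPM in tumors. Myh6, the alpha myosin of the atria, had 449.7 to 718 CPM (median 561) in lungs and 0 counts in tumors, at least 5219-fold higher. Of 10 mesothelial genes, 6 were higher in lung and 1 in tumor, beside 21.4% and 15.4% of all tested genes, with a median log2FC of -2.37, or -3.49 without tumors 2 and 6 and lung 5. Msln, mesothelin, was not called, with 53.8 to 66.03 CPM in tumors and 57.8 to 70.6 CPM in lungs (log2FC -0.11 ± 0.07). Of 9 platelet genes, 4 were higher in lung, 1 was higher in tumor and 4 were not called (median log2FC -0.77). Leaving out tumors 2 and 6 and lung 5 gave 5 in lung and 1 in tumor (median -1.84). On all 12 libraries Ppbp, a platelet chemokine, had a log2FC of -5.61 ± 0.34 and Selp, P-selectin, a log2FC of 2.01 ± 0.22.

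Immune genes differed by lineage. Of 23 genes of tumor-associated macrophages, 18 were higher in tumor and 1, Vegfa, in lung (median log2FC 2.65). Mrc1, the mannose receptor, had 311 to 519 CPM (median 477) against 106 to 136 CPM (median 120.2) (log2FC 1.84 ± 0.13, edgeR adjusted p = 3.3e-09), and Spp1, osteopontin, 256 to 415 CPM (median 335) against 96.00 to 151 CPM (median 124) (log2FC 1.46 ± 0.15). Apoe overlapped between the tissues (log2FC 0.88 ± 0.16). Of 17 alveolar macrophage genes, 9 were higher in lung and 2 in tumor (median log2FC -1.12), beside 21.4% and 15.4% of all tested genes. Chil3, a chitinase-like protein, was at 219 to 349 CPM (median 285) in lungs, 34.7 CPM in tumor 6 and 2.75 to 5.92 CPM in the other tumors (log2FC -4.95 ± 0.43). Without tumors 2 and 6 and lung 5 the log2FC of Chil3 was -6.05 and the median of this list was -3.22, with 11 members higher in lung and 2 in tumor. Of 14 neutrophil genes, 10 were higher in lung, and S100a9, a subunit of calprotectin, had 26.2 to 149 CPM (median 67.4) against 4.15 to 6.27 CPM (median 4.87) (log2FC -3.92 ± 0.43, edgeR adjusted p = 5.0e-07).

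B cell genes were higher in lung in 14 of 16 cases (median log2FC -2.07), and tumor 2 set the tumor range. The B cell sum was 261 CPM in tumor 2, 26.9 to 62.5 CPM in the other tumors and 147 to 361 CPM in lungs. Without tumors 2 and 6 and lung 5, 15 of 16 members were higher in lung and the median was -4.16. T cell genes were higher in lung in 12 of 20 cases and in tumor in 1, Foxp3, the factor of regulatory T cells (4.04 to 8.28 CPM (median 6.24) against 1.82 to 3.62 CPM (median 2.93), log2FC 1.10 ± 0.23, edgeR adjusted p = 3.9e-04), a call that was lost without lung 1. The counts of T cell genes were 15 in lung and 1 in tumor without tumors 2 and 6 and lung 5. The T cell sum was also largest in tumor 2, at 154 CPM against 52.2 to 86.4 CPM in the other tumors, and so was Ccl21a, a chemokine of lymph node stroma (10.7 CPM). Whether a lymph node of the fat pad had a part in tumor 2 was not tested.

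Of 15 genes of NK cells and cytotoxic granules, 7 were higher in lung and 2 in tumor, beside 21.4% and 15.4% of all tested genes. Of the granzymes, Gzma was at 14.8 to 37.4 CPM (median 16.8) in lungs and 1.15 to 4.78 CPM (median 1.704) in tumors (log2FC -3.19 ± 0.34), and Gzmc was at 13.4 to 67.6 CPM (median 26.8) in tumors and 0 to 0.68 CPM (median 0.19) in lungs (log2FC 6.83 ± 0.63, edgeR adjusted p = 7.1e-08). Gzmf, a near relative of Gzmc, had a log2FC of 7.17 ± 0.70, and reads of these paralogs may be split. Among 14 dendritic cell genes, 6 were higher in lung, such as Clec9a, a receptor for dead cells on cross-presenting cells (78.5 to 154 CPM (median 86.4) against 1.55 to 3.23 CPM (median 2.28), log2FC -5.40 ± 0.23), and 1 in tumor, Fscn1, the actin bundler of mature dendritic cells that cancer cells also express (log2FC 1.76 ± 0.14).

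None of 15 genes of MHC class I and peptide loading was called in edgeR at these thresholds (median log2FC 0.05), while 5 of them had an FDR under 0.05 without the fold limit and 6 an unadjusted p under 0.05. DESeq2 called 0 of them, and edgeR called 1 higher in lung when lung 1, lung 2, lung 4 or tumor 6 was left out. B2m, the light chain of class I, had 402 to 552 CPM (median 512) in tumors and 379.6 to 695 CPM (median 507) in lungs. Of 10 class II genes, 2 were higher in lung, beside 21.4% of all tested genes. Cd74, the invariant chain, was 648, 525, 355, 209, 477 and 519 CPM in tumors 1 to 6 and 604 to 763 CPM in lungs (log2FC -0.62 ± 0.19), so that tumor 4 had less than the other tumors. Of 24 interferon-stimulated genes, 4 were higher in tumor and 4 in lung (median log2FC -0.23), beside 15.4% and 21.4% of all tested genes. Lung 5 set these counts, and without it 9 members were higher in tumor and 2 in lung. Without tumors 2 and 6 as well, the counts were 11 and 2 and the median 0.97. Ifit3, an antiviral protein, was 57.7, 55.7, 111, 78.1, 482 and 106 CPM in lungs 1 to 6 and 6.51 to 22.3 CPM in tumors, so it was higher in every lung (log2FC -3.46 ± 0.56, edgeR adjusted p = 3.8e-05). Its log2FC was -2.49 without the same 3 libraries.

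**Figure D5:**
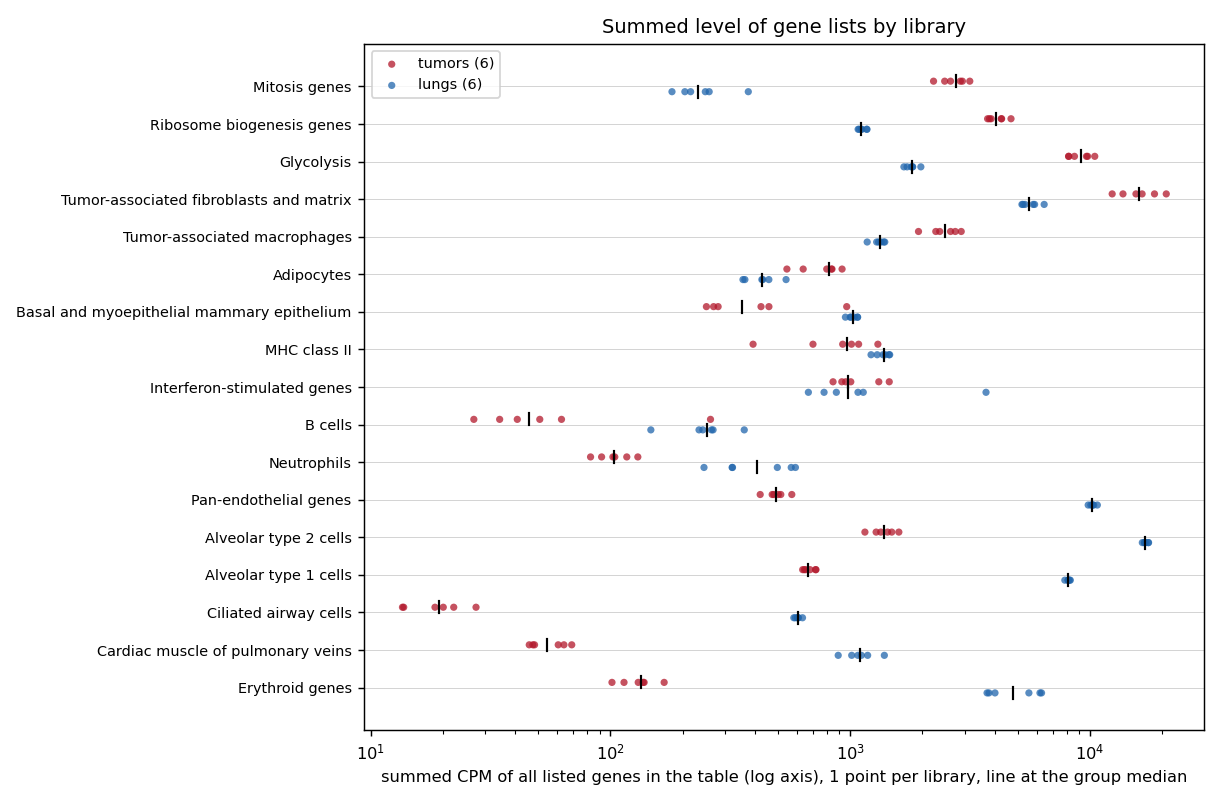
Summed CPM (log axis) of all listed genes of 17 gene lists in each of the 6 tumors (red points) and 6 lungs (blue points), with a black line at each group median. Sums of mitosis and glycolysis genes lie higher in every tumor than in any lung, sums of alveolar, endothelial and erythroid genes lie higher in every lung, and single libraries lie apart for basal mammary genes, B cells and interferon-stimulated genes.

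Of 21 chemokines with counts for a test, 10 were higher in tumor and 5 in lung, beside 15.4% and 21.4% of all tested genes. Cxcl15, the chemokine of lung epithelium, had 330.3 to 662 CPM (median 509) against 0 to 0.92 CPM (median 0.241) (log2FC -10.50 ± 0.30, edgeR adjusted p = 9.9e-14), and Cxcl12, which retains cells bearing Cxcr4, 139 to 167 CPM (median 149.6) against 15.2 to 39.6 CPM (median 23.6) (log2FC -2.61 ± 0.17). Of 31 genes of TGF-beta and BMP signaling, 14 were higher in lung and 5 in tumor, the latter near the share over all tested genes. The ligands Tgfb1 (26.2 to 47.7 CPM (median 34.3) against 7.68 to 13.1 CPM (median 11.8), log2FC 1.68 ± 0.16, edgeR adjusted p = 9.7e-08), Tgfb3 (log2FC 1.18 ± 0.08), Inhba (log2FC 3.39 ± 0.28) and Bmp7 (log2FC 3.06 ± 0.12) and the BMP antagonist Grem1 (log2FC 2.98 ± 0.32) were higher in tumor. The receptors of the endothelial branch were higher in lung, namely Acvrl1 (442 to 599 CPM (median 583) against 11.8 to 18.3 CPM (median 14.6), log2FC -5.23 ± 0.12), Eng (log2FC -3.80 ± 0.08) and Bmpr2 (log2FC -2.67 ± 0.06), as was the ligand Bmp5, with 67.97 to 74.6 CPM (median 71.6) and a pooled ratio of 1985 (95% counting interval 356 to 78435). Of 26 Wnt signaling genes, 14 were higher in lung and 5 in tumor, the latter again near that share. The paralogs Wnt7b and Wnt7a differed in opposite directions, with Wnt7b at 68.3 to 76.4 CPM (median 71.1) in tumors and 1.64 to 3.66 CPM (median 2.104) in lungs (log2FC 4.99 ± 0.13, edgeR adjusted p = 4.7e-14), and Wnt7a at 0 counts in tumors and 5.33 to 7.87 CPM (median 6.78) in lungs, at least 60.9-fold higher in lung.

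Of 17 clock genes, 11 were higher in lung and 1 in tumor. Per1, of the repressing limb, had 117 to 300.3 CPM (median 147) against 33.2 to 98.2 CPM (median 74.96) (log2FC -1.29 ± 0.27), and Hlf, an output factor, log2FC -4.32 ± 0.20. Arntl, of the activating limb, was the member higher in tumor (11.8 to 21.1 CPM (median 17.7) against 3.48 to 9.68 CPM (median 6.69), log2FC 1.33 ± 0.20, edgeR adjusted p = 2.3e-05). Without lung 6 or tumor 6 the count in tumor was 2. The hour at which each tissue was taken is not given in the sources used here.

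Xist, the RNA that coats the inactive X chromosome in females, at chrX:103460366-103483254, minus strand, had 4782 to 6361 CPM (median 5733) in tumors and 1224 to 1388 CPM (median 1308) in lungs (log2FC 2.12 ± 0.07, edgeR adjusted p = 4.7e-13). Tsix, its antisense partner, was higher in lung at low counts (log2FC -1.29 ± 0.29), and whether the counting used strand is not given in the sources used here, so reads of the pair may be mixed. Of 9 tested genes of X inactivation and the Y chromosome, 3 were higher in tumor and 1 in lung, beside 15.4% and 21.4% of all tested genes. The median over genes of the X chromosome was -0.14, and medians over autosomes ran from -0.20 to 0.07. Of 23 imprinted genes, 6 were higher in tumor and 9 in lung, against the same shares. The RNAs Meg3 (32.9 to 55.97 CPM (median 41.4) against 8.400 to 13.6 CPM (median 11.7), log2FC 1.93 ± 0.14, edgeR adjusted p = 4.7e-09), Rian (log2FC 1.82 ± 0.15) and Mirg (log2FC 1.94 ± 0.20), which are transcribed in a row on chromosome 12, were higher in tumor together with Igf2r (log2FC 1.80 ± 0.06) and Airn, its antisense RNA (log2FC 1.18 ± 0.13), a pair that overlaps on opposite strands, so that reads of Igf2r, at 680.1 to 863 CPM in tumors, may be mixed into those of Airn, at 27.8 to 39.6 CPM. Cdkn1c, an inhibitor of the cell cycle, was higher in lung (log2FC -4.41 ± 0.30). Of 39 Hox genes, 9 had counts for a test, of which 1 was higher in tumor, beside 15.4% of all tested genes, and 2 were higher in lung, beside 21.4%, the latter being Hoxa5 (log2FC -1.31 ± 0.23) and Hoxb5 (log2FC -2.62 ± 0.27).

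Of 15 adipocyte genes, 8 were higher in tumor and 2 in lung. Car3, carbonic anhydrase of fat, had 117 to 229 CPM (median 204) against 33.9 to 88.5 CPM (median 45.6) (log2FC 1.83 ± 0.24, edgeR adjusted p = 3.8e-06), and Fabp4, the fatty acid carrier of adipocytes, log2FC 1.95 ± 0.22. The part of host fat in the tumor libraries was not tested. Of 5 tested skeletal muscle genes, 2 were higher in tumor and 2 in lung, beside 15.4% and 21.4% of all tested genes, and 11 further members were not tested. The summed level of the list was 131 to 334 CPM in tumors and 1086 to 1812 CPM in lungs.

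Of 22 genes of the p53 pathway and of cell cycle arrest, 6 were higher in tumor and 4 in lung, and of 20 genes of the unfolded protein response, which relieves the endoplasmic reticulum of misfolded protein, 3 and 2. The shares over all tested genes were 15.4% and 21.4%. Most members were not called, 12 and 15, and the medians of the lists were 0.41 and 0.13.

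Clic4, the gene deleted in the KO hosts of the series, was present in all 12 libraries. It had 330.0, 328, 359, 349, 325 and 344 CPM in tumors 1 to 6 and 741, 659, 970.2, 679, 892 and 689 CPM in lungs 1 to 6, so every lung had more than every tumor (log2FC -1.19 ± 0.09, edgeR adjusted p = 9.0e-09). It lies at chr4:135213969-135272814, minus strand. Of the 5 tested members of its family, 4 were higher in lung. Clic5, which alveolar type 1 cells express, had 1141 to 1234 CPM (median 1214) against 0.46 to 3.14 CPM (median 0.918) (log2FC -9.91 ± 0.19, edgeR adjusted p = 1.3e-15, with a log2FC of -10.62 without tumors 2 and 6 and lung 5), and Clic3 had a log2FC of -5.87 ± 0.25. Clic1 was not called, with 144 to 186 CPM in tumors and 96.5 to 109.9 CPM in lungs (log2FC 0.65 ± 0.07).

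Levels between genes were compared per length, as FPKM rescaled to 1 equal total per library without the small RNAs Rn7s1, Rn7s2 and Rn7sk. The mitochondrial ribosomal RNA mt-Rnr2 had the highest level in both tissues (136603 ± 12462 in tumors and 100728 ± 7490.1 in lungs, mean ± SD, n = 6). In lungs it was followed by Scgb1a1 (48572 ± 3195), mt-Rnr1 (29157 ± 2669) and Sftpc (15997 ± 614). The tumors' most abundant nuclear protein-coding gene was Eef1a1, a translation elongation factor (9429 ± 303 in tumors and 3611 ± 123 in lungs). Mitochondrial genes took 16.4 ± 1.7% (SD, n = 6) of the counts outside the small RNAs in tumors and 9.95 ± 0.659% in lungs; the two-sided p of the exact permutation test was 0.00216, and 0.00271 after Benjamini-Hochberg adjustment over 5 shares. The 10 most abundant genes took 20.5 ± 1.93% in tumors and 15.3 ± 0.723% in lungs, with the same p, the smallest that 6 against 6 allows. The 3 small RNAs took 8.73 to 12.9% of all counts in tumors and 8.33 to 10.3% in lungs (exact permutation test, two-sided, p = 0.253).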

How the data were processed

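RNA of 6 tumors and 6 lungs was sequenced from stranded poly(A) libraries, per the labels, and the submitters' processing notes name STAR, RSEM and the mm10 build. The authors deposited expected counts per gene and a table of FPKM for all 32 libraries; how the 29511 genes of the count table were chosen and whether counting used strand are not given in the sources used here. All columns matched a labelled library. The deposited expected counts were rounded to whole numbers and tested with edgeR 4.0.16 in R 4.3.3 (quasi-likelihood, filterByExpr, TMM) on the 12 libraries, with Benjamini-Hochberg adjustment over all genes tested. The RNAs Rn7s1, Rn7s2 and Rn7sk, of which the first 2 held identical values, were left out of size factors. Calls needed an FDR under 0.05 and a fold over 2. The authors' FPKM were rescaled to 1 equal total per library without those RNAs. No pair of replicates agreed within sampling noise (chi-square per degree of freedom 2.79 to 12.2). The study describes the tissues as taken from independent animals, while the labels do not number the animals; p-values measure the spread between these libraries, and counting intervals and floors cover counting error only.

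The members and the 51 gene lists were chosen with earlier results of these data known. Named genes were the 10 highest and 10 lowest fold changes among called genes without overlap and with at least 50 CPM in the higher tissue, in each list up to 4 members of highest level, the largest and smallest fold changes and called members against the majority, Myc, Clic4, and the 5 most abundant genes per length in each tissue. Other genes named in the text, among them Csn1s1, Csn2, Ehf, Elf3, Epcam, Foxa1, Glycam1, Krt14, Olfr56, and the printed promoters of Cdk1, Ube2c, Cdc20 and Uhrf1 were chosen after their values were seen. Positions are from GENCODE M21 (GRCm38). Alternatives were other scalings, filters, thresholds, DESeq2 1.42.0, all day-14 libraries in 1 fit, lungs without tumor, a replicate block and each library left out. Some members of the lists are not reported here by name.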

Additional observations from a re-analysis of the deposited data

Results flagged for a closer look

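In 44 of 432 groups of 6 libraries, each a gene, list sum or share in 1 tissue, the highest or lowest library stood apart from the other 5 by Dixon's criterion for 6 samples. Chance alone flags about 1 in 20 groups, and groups whose highest library held 3 counts or fewer were not tested. Some of the genes were named because a library stood apart, so the number flagged is no comparison with chance. Tumor 6 accounted for 17 of them, lung 5 for 7 and tumor 2 for 4.

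Tumor 6 was high in a part of the mammary epithelial genes, in CPM: Krt5 131 against 2.404 to 47.1 in the other tumors, Krt14 178 against 1.75 to 44.2, Krt7 6.75 against 0.46 to 1.72, Cdh1 51.6 against 6.77 to 12.2, Epcam 25.1 against 2.76 to 8.35, Csn2 54.04 against 0 to 0.269, Csn1s1 36.7 against 0 to 0.218, Elf5 13.99 against 0.859 to 3.25 and Ehf 42.2 against 1.84 to 5.89. The luminal keratin genes Krt8 and Krt18 were lowest among tumors there (337 and 183), and the luminal sum, 1407 against 1196 to 1305, did not stand apart by the criterion. Tumor 6 was also high in Slc34a2 (6.75 against 0 to 0.808), Fn1 (4151 against 1982 to 2469), Myh11 (46.1 against 8.97 to 17.5) and Chil3 (34.7 against 2.75 to 5.92), and low in Kcnt1 (20.5 against 70.8 to 92.2). Its list sums were high for basal mammary genes (966), mesenchymal transition genes (7942) and alveolar macrophages (503).

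Tumor 2 was high in Glycam1 (56.5 against 0 to 0.241 CPM in the other tumors) and Ccl21a (10.7 against 1.38 to 4.02), and in the sums of B cell (261 CPM) and T cell genes (154 CPM). Tumor 1 was low in Tfap2a (7.08 against 13.1 to 16.4 CPM), and tumor 4 had 19.7% of its counts in mitochondrial genes, against at most 16.3% in the others.

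Lung 5 was high in the sum of interferon-stimulated genes (3681 CPM), Ifit3 (482 against 55.7 to 111 CPM in the other lungs), Olfr56 (14.02 against 2.37 to 4.93), Fabp4 (47.4 against 15.6 to 25.2), Tgfb2 (37.2 against 21.3 to 25.6) and Itga8 (738 against 629 to 659), and low in Tbx2 (102 against 127 to 141). Lung 3 was high in Krt8 (136 against 77.5 to 97.2), Tagln (125 against 86.9 to 95.3), Hilpda (54.2 against 40.04 to 45.3) and Myh11 (253 against 218 to 227), low in Airn (10.9 against 15.8 to 17.5), and the only lung with counts of Mup10 (0.68). Lung 2 was high in Col3a1 (1053 against 583 to 751), Cdc20 (8.604 against 1.84 to 4.19) and Wnt7b (3.66 against 1.64 to 2.38) and low in Gsto1 (20.6 against 27.1 to 28.9). Lung 4 was high in Hlf (53.1 against 36.1 to 41.9), and lung 6 in Clec9a (154 against 78.5 to 104), Eno1b (15.4 against 0 to 1.64) and its near-copy Gm4735 (13.7 against 0 to 1.64).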

How the results depend on the processing

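With an FDR of 0.05 and no limit on the fold, 5651 genes were higher in tumor and 5809 in lung, and with a limit of 4-fold 851 and 1937. With no filter on low counts the counts were 3469 and 5056, since more genes were tested. The other alternatives gave 1799 (a test against a 2-fold change) to 2542 (upper-quartile scaling) genes in tumor and 2683 to 3578 in lung, the last without tumors 2 and 6 and lung 5, an alternative chosen after the data were seen. DESeq2 called 2279 and 3336, and lungs of WT mice without tumor in place of those at day 14, compared with the same tumors, gave 2457 and 3393. Leaving out 1 library gave 2383 to 2446 genes in tumor and 3272 to 3491 in lung. In those fits the difference in share of counts, tumor minus lung, was 5.74 to 6.71 for mitochondrial genes, 4.52 to 5.61 for the 10 most abundant genes, 4.16 to 5.18 for the 100 most abundant, 3.25 to 3.88 for the 1000 most abundant, 0.42 to 1.26 for the 3 small RNAs, in percentage points. The labels do not say whether a replicate number marks 1 animal. Deviations of tumor and lung of 1 number correlated at -0.0188 to 0.074, and 2 of 6 tumors were nearest to the lung of their number. Tumor and lung of 1 animal need not deviate together, so these values cannot decide whether the numbers pair the libraries. With the number as a block, 2343 and 3282 genes were called. None of the 159 called genes named here changed sign under any alternative run, and 6 lost the call without a single library, namely Angptl4, Cdh2, Elf5, Foxp3 and Pfkfb3, as given in the report, and Olfr56, without lung 5 or without tumor 5. Under the other alternatives 51 lost the call, all of them with the limit of 4-fold, 19 also in the test against a 2-fold change and 6 against lungs of mice without tumor. Fasn, not called, changed sign, to a log2FC of 0.0512 with upper-quartile scaling, 0.0094 without the 3 libraries, and values without 1 library that ran from -0.061 without tumor 6 to 0.0457 without tumor 2, with 0.0012 without lung 3, and were also above 0 without lung 2 (0.00709), tumor 3 (0.0121) or tumor 5 (0.0365). The cause of these changes was not tested. No scaling moved the median over all genes by more than 0.1. Genes at a few counts a library, such as Tsix, are limited by depth.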

Other observations

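Groups of genes formed from their names, after the values had been seen, showed the following. Their counts stand beside 15.4% of all tested genes higher in tumor and 21.4% higher in lung. Of 76 genes of ribosomal proteins, the building blocks of the ribosome, 69 were higher in tumor, with a median log2FC of 1.57 in WT and 1.41 in KO hosts, and their sum was 29270.5 to 35258 CPM in tumors and 10192 to 11378 CPM in lungs. Of 46 histone genes, 44 were higher in tumor (median 2.84), with sums of 953 to 2142 CPM in tumors and 205 to 487 CPM in lungs. Many histone genes are near-copies whose reads may be split, and their messages mostly lack the poly(A) tail on which the libraries were selected. Of 15 small nucleolar RNAs, which guide the modification of ribosomal RNA, 10 were higher in tumor (median 1.83).

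Of 34 collagen genes, 14 were higher in tumor and 8 in lung, beside 15.4% and 21.4% of all tested genes, with a sum of 10118 to 17356 CPM in tumors and 5338 to 6971 CPM in lungs. Of 7 immunoglobulin constant genes, 5 were higher in lung, and among the tumors their sum ran from 5.92 to 199 CPM (median 23.4). The 13 protein-coding genes of the mitochondrial genome had a median log2FC of 0.50, under the 2-fold limit, with sums of 13345 to 17048 CPM in tumors and 8861 to 9802 CPM in lungs.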
